A study of Mus musculus with 2 samples.

Results

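Histone lysine methylation is written and removed by a set of enzymes of which 42 were followed here, 30 methyltransferases or core subunits of their complexes and 12 demethylases, out of 24013 gene symbols in the table. They were chosen by name from a list of known enzymes on the autosomes, with earlier results of these data known. Where a symbol had several transcript rows, the row with the most counts on average was used, and all 42 passed the minimum mean of 50 normalized counts that defined the 10518 genes compared. RNA was sequenced from CD8+ T cells of C57BL/6 mice, 1 library from wild-type animals aged 7 weeks and 1 from DGKζ-/- animals aged 6 weeks. Both came from naive spleen cells that were kept for 24 hours on plate-bound anti-CD3 and anti-CD28, which engage the T cell receptor and its costimulatory partner. DGKζ removes diacylglycerol, the lipid messenger that carries the receptor signal to Ras and protein kinase C. The labels state neither how the gene was disrupted nor how many animals entered a library.

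Lysine methylation of histone tails marks the state of a gene without changing its DNA. Methylation of H3 lysine 4 lies at active promoters and enhancers, that of lysine 36 and lysine 79 over transcribed genes, and that of lysine 9 and lysine 27 at silenced chromatin. SET-domain enzymes and DOT1L add these marks, while the flavin enzymes of the LSD type and the JmjC oxygenases remove them. In CD8 T cells the lysine 27 methyltransferase EZH2 is known for its part in silencing genes of other fates during effector differentiation.

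With 1 library per genotype no difference has a replicate check, and no p-value was computed. Genotype, age and sex cannot be told apart, since Xist had 14.0 normalized counts in wild type and 9206 in DGKζ-/-. The targeted gene Dgkz was at 6714 and 2591 normalized counts, which is 2.59-fold lower in DGKζ-/- (95% interval from counting error, 2.46 to 2.74). The 1511 reads of Dgkz that remain there cannot be placed inside or outside a deleted part from counts per transcript. The libraries held 37211969 and 13464169 reads over 1 row per gene, a depth ratio of 2.76. All 7 CD8 T cell markers were read, with a summed level of 43501 normalized counts in the wild-type and 36529 in the DGKζ-/- library. Of these 5 were lower, among them Cd3g by 1.83-fold and Cd8a by 1.55-fold. Of the other cell types sought, the 10 B cell markers summed to 3142 and 2303, with all 9 compared markers lower in the DGKζ-/- library, and the 4 CD4 T cell markers to 510 and 427, with Cd4 itself at 171 and 53.2 and Foxp3 at 262 and 321. The 6 NK cell markers summed to 1363 and 1996, a sum that is mostly Eomes (956 and 1861), which effector CD8 T cells also express. Klrd1 was at 395 and 134, and 3 other NK cell markers were at 0 in the DGKζ-/- library. The 8 myeloid markers summed to 286 and 274 with 1 at 0 there, and the 5 red cell markers to 73.5 and 60.0 with 1 at 0 in each library. Whether these cells have a part in the differences below was not tested, and in bulk RNA fewer cells of a type and less RNA per cell cannot be told apart.

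Each gene is given by its normalized counts, which are reads divided by 1 size factor per library, and by the log2 ratio, log2 of (DGKζ-/- + 10) over (wild type + 10). Folds are ratios of normalized counts without the added 10, with an exact interval that covers counting error only. Of the 42 enzymes, 4 had a log2 ratio at or under the 2-fold limit in the DGKζ-/- library (9.52%, against 1.29% of all compared genes) and 0 reached it in the other direction (against 1.3%). Scaling both libraries to equal totals would change the split of all compared genes past 2-fold from 137 higher and 136 lower to 117 higher and 180 lower. At a limit of 1.5-fold, 6 were lower (14.3%, against 5.07%) and 0 higher (against 4.53%). Their median log2 ratio was -0.03, beside 0.05 for all compared genes, whose quartiles lay at -0.14 and 0.22. Of the members 21 lay between those quartiles, 15 below and 6 above, so members outside the quartiles lay mostly on the lower side. The counting interval of the fold lay below 1 for 16 members (against 21.7% of genes) and above 1 for 12 (against 35.8%).

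**Figure D1:**
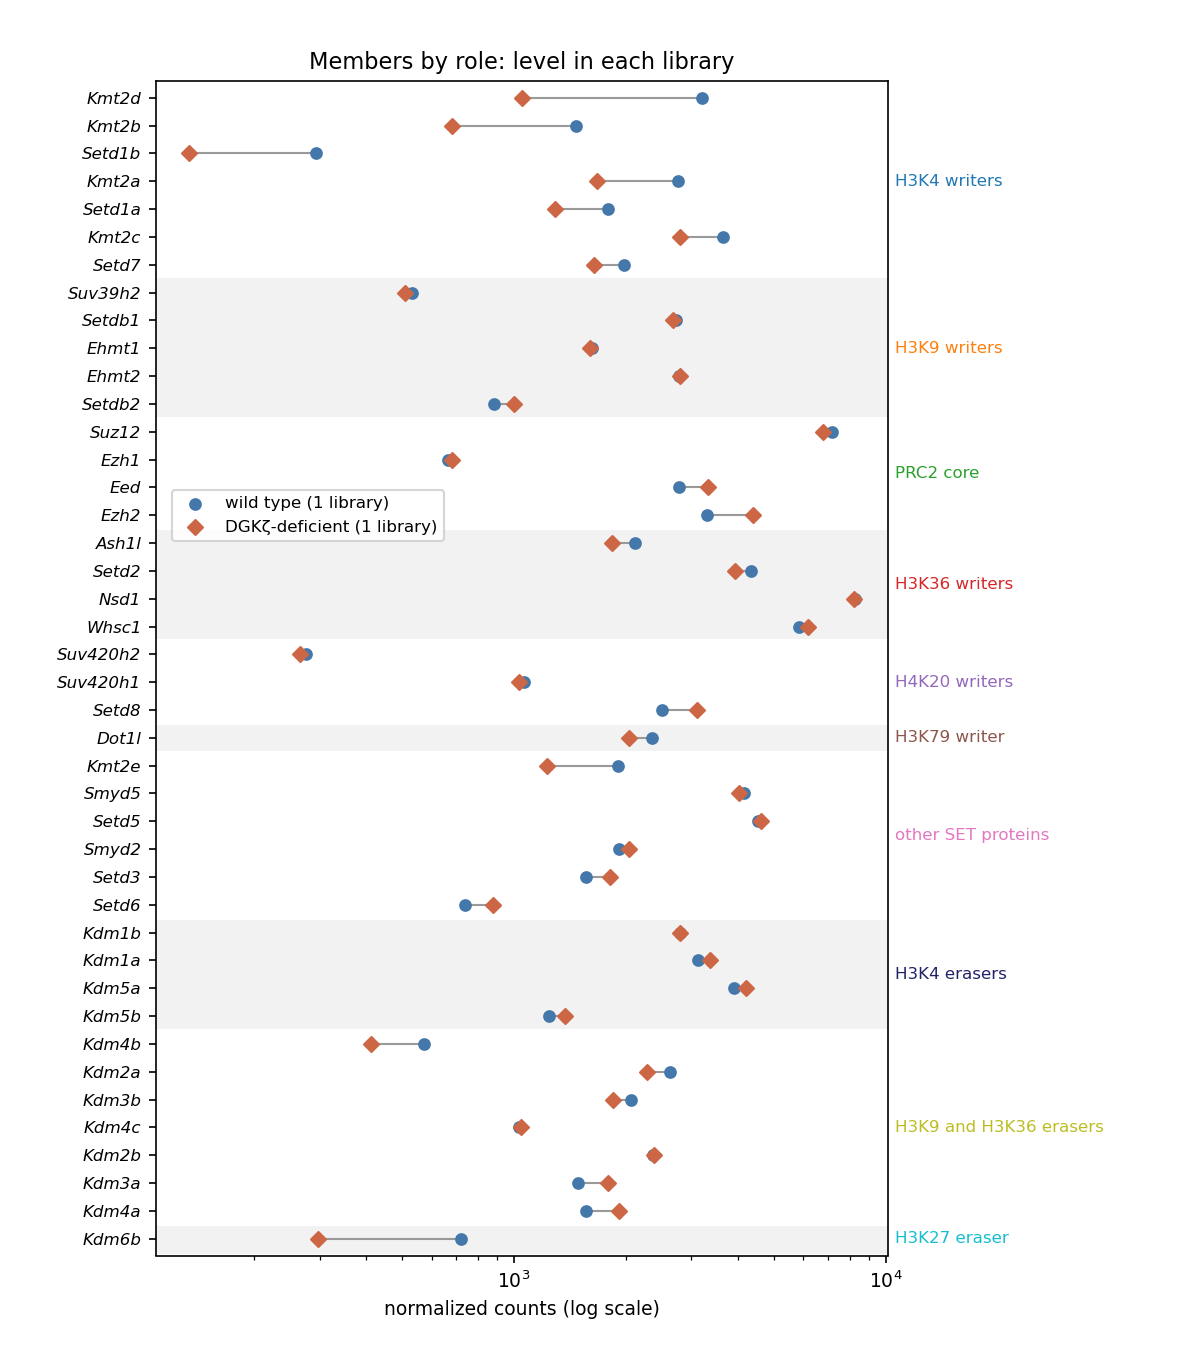
Normalized counts of the 42 members in the wild-type library (circles) and the DGKζ-/- library (diamonds, deficient), on a log axis, ordered by role. The widest gaps belong to Kmt2d (3212 and 1053), Kdm6b (718 and 297), Kmt2b (1465 and 679) and Setd1b (293 and 134), all lower in the DGKζ-/- library.

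The writers of H3 lysine 4 methylation were lower as a whole group. All 7 had a log2 ratio below 0 (against 41.8% of all compared genes) and a counting interval below 1 (against 21.7%), and 3 of the 4 members that passed the 2-fold limit are among them. Their median log2 ratio was -0.72, the lowest of the role groups with at least 3 members. Kmt2d, which with Kmt2c places monomethylation at enhancers, had 3212 normalized counts in wild type and 1053 in DGKζ-/- cells (5508 and 614 reads). It was 3.05-fold lower (2.81 to 3.32), with a log2 ratio of -1.60 that ranked 22 from the lowest of all 10518 compared genes. Kmt2b, a trimethylase of promoters, was at 1465 and 679 normalized counts, 2.16-fold lower (1.94 to 2.40). Setd1b, another SET-domain enzyme of promoter trimethylation, was at 293 and 134 normalized counts, 2.19-fold lower (1.72 to 2.81). This was the least abundant of these genes in the DGKζ-/- library, with 78 reads there, and with 50 in place of 10 added to the counts its log2 ratio came to -0.90, short of 2-fold.

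The remaining lysine 4 writers were lower by less. Kmt2a, the MLL gene that keeps Hox genes active and forms fusions in leukaemia, had 2761 normalized counts in wild type against 1669, a 1.65-fold lower level (1.54 to 1.77). Setd1a, the paralog of Setd1b, was at 1794 and 1291, 1.39-fold lower (1.28 to 1.51). A share of 52.3% of its annotated exon bases overlaps 2 other genes, 1 antisense and 1 not. Strand cannot separate reads over the latter, nor, in a library that keeps no strand, those over the antisense gene. Kmt2c was at 3648 and 2802 normalized counts, 1.30-fold lower (1.23 to 1.38). Setd7, a monomethylase that also acts on proteins other than histones, was at 1971 and 1638, 1.20-fold lower (1.12 to 1.29). Within the pairs of close paralogs the differences were unequal: Kmt2d had a log2 ratio of -1.60 and Kmt2c one of -0.38, Setd1b one of -1.07 and Setd1a one of -0.47, and Kmt2b one of -1.10 and Kmt2a one of -0.72. In each pair the lower gene belongs to the long, GC-rich transcripts described below and the other does not. The part of transcript length and GC content in these gaps was not tested. Per kilobase of transcript, the 6 writers that work in COMPASS complexes (without Setd7) summed to 1082 normalized counts per kilobase in the wild-type and 655 in the DGKζ-/- library.

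**Figure D2:**
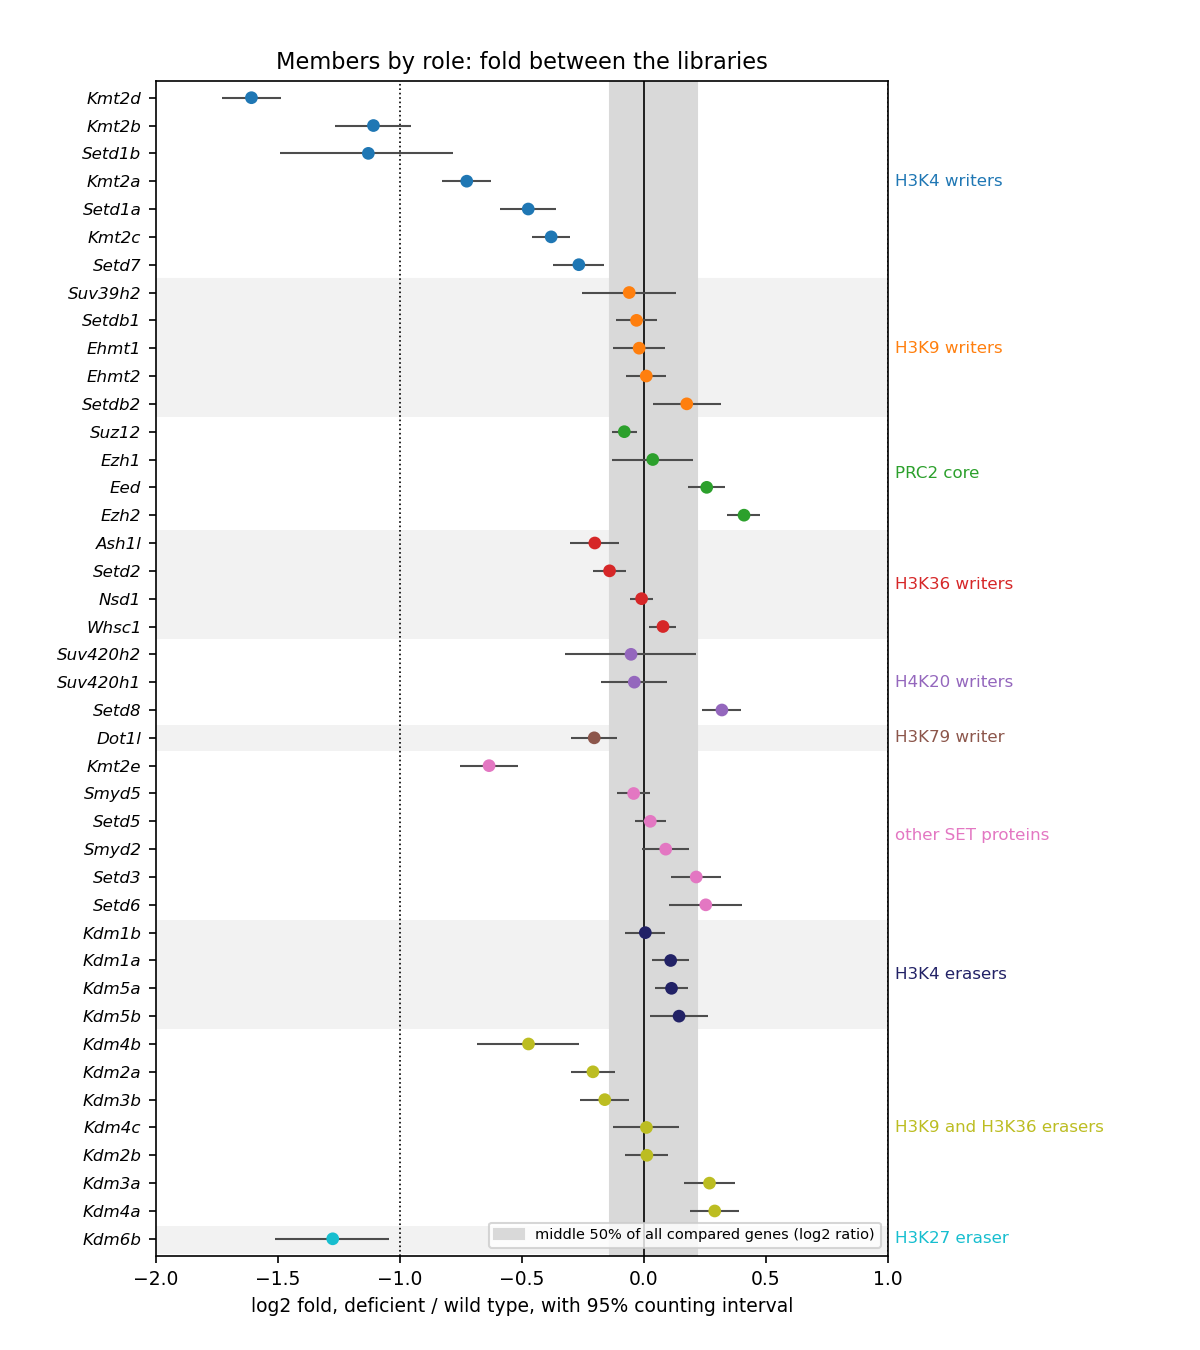
Log2 of the fold (DGKζ-/- over wild type) of each member, with its 95% counting interval as a bar, ordered by role. The grey band spans the quartiles of the log2 ratio of all compared genes (-0.14 to 0.22), and dotted lines mark 2-fold. All 7 lysine 4 writers and Kdm6b lie to the left of the band, among 15 members below the lower quartile.

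The promoters of 4 members are shown. They are the 3 lysine 4 writers with the lowest log2 ratios for which RefSeq gave a window and Ezh2, the member with the highest. No window was given for Kdm6b, Kmt2b and Setd1b, so of the members past the 2-fold limit only Kmt2d is shown. Each window runs from 250 bases before to 50 bases after the annotated start, 5′ to 3′ on the strand of the gene, from the RefSeq annotation of GRCm38.p6. Capitals mark the GC box, the letters GGGCGG or on the other strand CCGCCC, known as a binding motif of SP and KLF factors.
Kmt2d chr15:98871156-98871455 (GRCm38.p6, minus strand): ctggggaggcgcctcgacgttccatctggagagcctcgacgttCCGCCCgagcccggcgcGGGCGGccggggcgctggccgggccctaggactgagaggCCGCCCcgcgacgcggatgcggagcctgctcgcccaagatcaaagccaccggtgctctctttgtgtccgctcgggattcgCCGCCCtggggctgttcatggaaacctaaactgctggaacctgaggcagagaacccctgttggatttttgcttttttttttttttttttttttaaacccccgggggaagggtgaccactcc
Kmt2a chr9:44881240-44881539 (GRCm38.p6, minus strand): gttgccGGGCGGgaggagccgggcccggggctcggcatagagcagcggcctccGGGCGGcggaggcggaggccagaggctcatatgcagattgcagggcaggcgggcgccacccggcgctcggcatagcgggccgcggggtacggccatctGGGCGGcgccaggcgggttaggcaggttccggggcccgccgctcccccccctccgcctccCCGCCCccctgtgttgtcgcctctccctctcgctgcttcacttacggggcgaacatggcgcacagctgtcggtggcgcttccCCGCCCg
Setd1a chr7:127777139-127777438 (GRCm38.p6, plus strand): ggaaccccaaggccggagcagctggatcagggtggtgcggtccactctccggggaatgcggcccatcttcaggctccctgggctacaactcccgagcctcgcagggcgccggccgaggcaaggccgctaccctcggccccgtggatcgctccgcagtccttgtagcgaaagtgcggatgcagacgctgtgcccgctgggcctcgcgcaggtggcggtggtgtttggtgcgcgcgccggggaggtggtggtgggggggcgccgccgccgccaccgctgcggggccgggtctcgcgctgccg
Ezh2 chr6:47594981-47595280 (GRCm38.p6, minus strand): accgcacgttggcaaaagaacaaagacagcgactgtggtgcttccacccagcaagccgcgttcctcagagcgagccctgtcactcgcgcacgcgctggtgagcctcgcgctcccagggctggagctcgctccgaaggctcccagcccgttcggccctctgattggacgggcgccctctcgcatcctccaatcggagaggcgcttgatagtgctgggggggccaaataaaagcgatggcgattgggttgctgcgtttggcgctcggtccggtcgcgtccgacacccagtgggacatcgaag
The Kmt2d window held 4 GC boxes and 27 CpG dinucleotides, that of Kmt2a 5 and 36, that of Setd1a 0 and 35, and that of Ezh2 0 and 31. A GC box was present in 29 of 42 member windows (31 members have at least 1 window) and in 35.7% of all 32851 windows. The median number of CpG dinucleotides was 28 in member windows and 7 in all. The 32851 windows were not limited to the compared genes, whereas all members passed the minimum count. The sets thus differ in more than enzyme role, and genes with several starts count more than once. Neither the window of Setd1a, whose log2 ratio was -0.47, nor that of Ezh2, at 0.41, holds these letters.

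The 4 lowest members also have long transcripts rich in G and C, and across all compared genes the log2 ratio was lower in longer transcripts. Lengths and GC content were taken from GENCODE transcripts that carry the RefSeq accession of the row, for 41 of the 42 members (all but Setdb2) and 98.9% of the compared genes. Members are long, with a median of 5927 bases beside 2913 for all compared genes. Across 10399 compared genes the Spearman correlation of the log2 ratio with length was -0.26 and with GC content -0.03. Over the 41 members it was -0.57 with length and -0.30 with GC content, all from the same pair of libraries, which differ in depth. The median log2 ratio was 0.15 in genes of 60 to 1149 bases and -0.07 in those of 6266 bases or more.

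Length and GC content together set a small class apart. Of 128 compared genes with at least 6000 bases and a GC content of at least 55%, limits chosen after the values were seen, 18 (14.1%) were at least 2-fold lower and 0 higher, with a median log2 ratio of -0.43. The class holds 5 members, namely Kmt2d (19823 bases, 58.4% GC), Setd1b (8857 bases, 59.0%), Kmt2b (8469 bases, 59.1%), Kdm6b (6654 bases, 59.6%) and Dot1l (6808 bases, 57.5%). All 4 members that passed the 2-fold limit are in it. Leaving the members out, 14 of 123 genes of the class (11.4%) were at least 2-fold lower. In the class of at least 6000 bases with a GC content under 55%, 0 of 14 members and 1.34% of all genes were at least 2-fold lower. Outside the long, GC-rich class single members varied. Among GC-rich but shorter transcripts Ehmt2 (4026 bases, 60.8% GC) had a log2 ratio of 0.01, Kdm4b (4577 bases, 58.7%) one of -0.46 and Setd1a (5927 bases, 57.2%) one of -0.47. Among long transcripts with less GC, Nsd1 (12784 bases, 46.5% GC) had one of -0.01, Kmt2e (7252 bases, 46.0%) one of -0.63 and Kmt2a (16461 bases, 50.6%) one of -0.72.

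Against the 200 genes nearest in length and GC content the lysine 4 writers stayed below 0, by smaller amounts. The median log2 ratio of the 200 genes nearest in length and GC content was -0.31 for Kmt2d, -0.36 for Kmt2b, -0.35 for Setd1b and -0.33 for Kdm6b. That median was taken off and the median of all compared genes (0.05) added back, so 0.05 stands for no difference from the nearest genes. The log2 ratios were then -1.23 for Kmt2d, -0.68 for Kmt2b, -0.67 for Setd1b and -0.86 for Kdm6b. Kmt2d alone of the members stayed past the 2-fold limit (0.933% of all genes did). With the length trend removed, or the length and GC trends together, 2 members passed it, Kmt2d and Kdm6b, beside 1.08% and 1.01% of all genes. Setd1a came to -0.16 against its nearest genes, while Kmt2a (-0.55) and Kmt2e (-0.57), with a GC content of 50.6% and 46.0%, moved by less. The long, GC-rich class holds 128 genes, so the 200 nearest genes of its members reach beyond it. The class median of -0.43 is lower than the medians of -0.31 to -0.36 taken off above. The length and GC trends were fitted as a sum, without a joint term. These corrections may therefore be too small for members of the class. What length and composition contribute to these differences was not tested further.

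**Figure D3:**
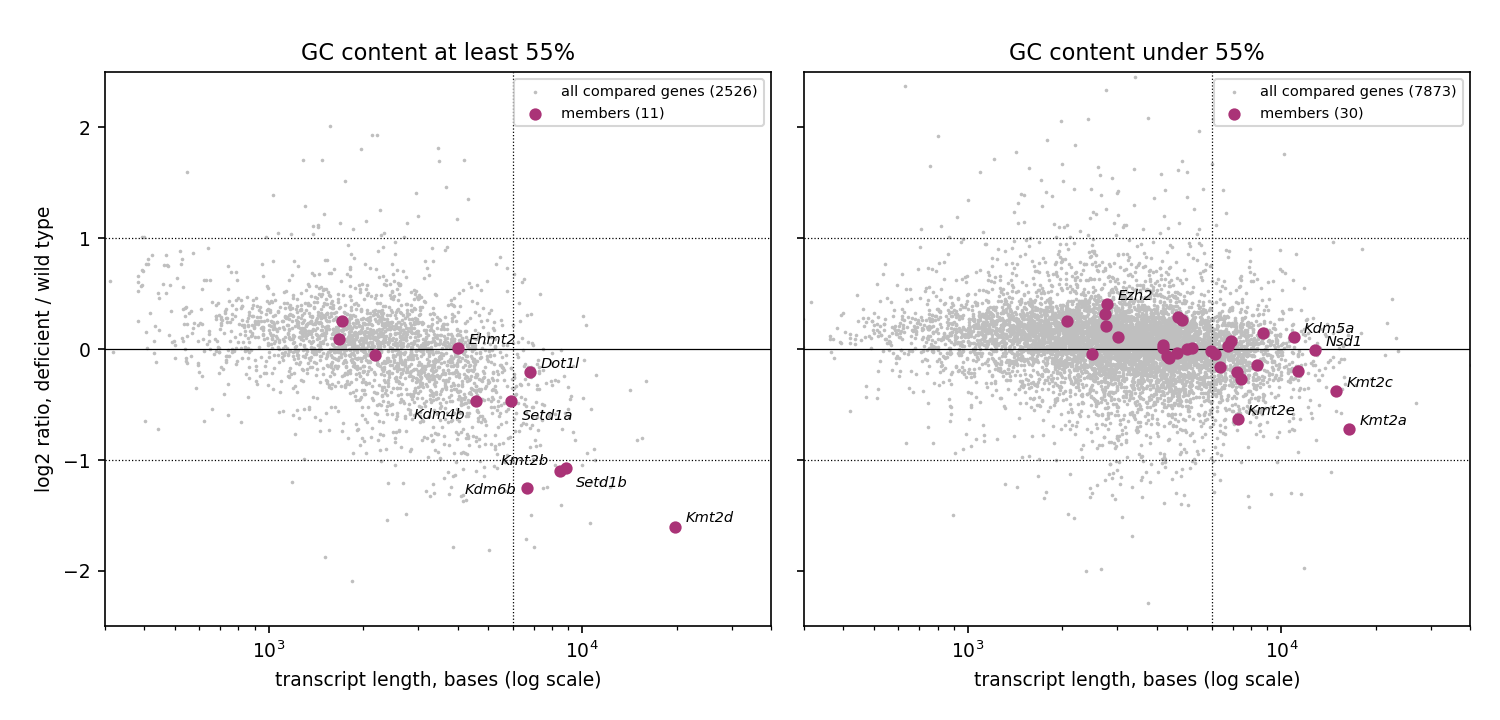
Log2 ratio against transcript length (log axis) for compared genes (grey) and members (purple), with genes of at least 55% GC on the left and the others on the right. Dotted lines mark 2-fold and 6000 bases, and 134 genes lie beyond the axes. Kmt2d, Kdm6b, Kmt2b and Setd1b lie in the lower right of the left panel, where no gene of at least 6000 bases reached the upper 2-fold line.

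**Figure D4:**
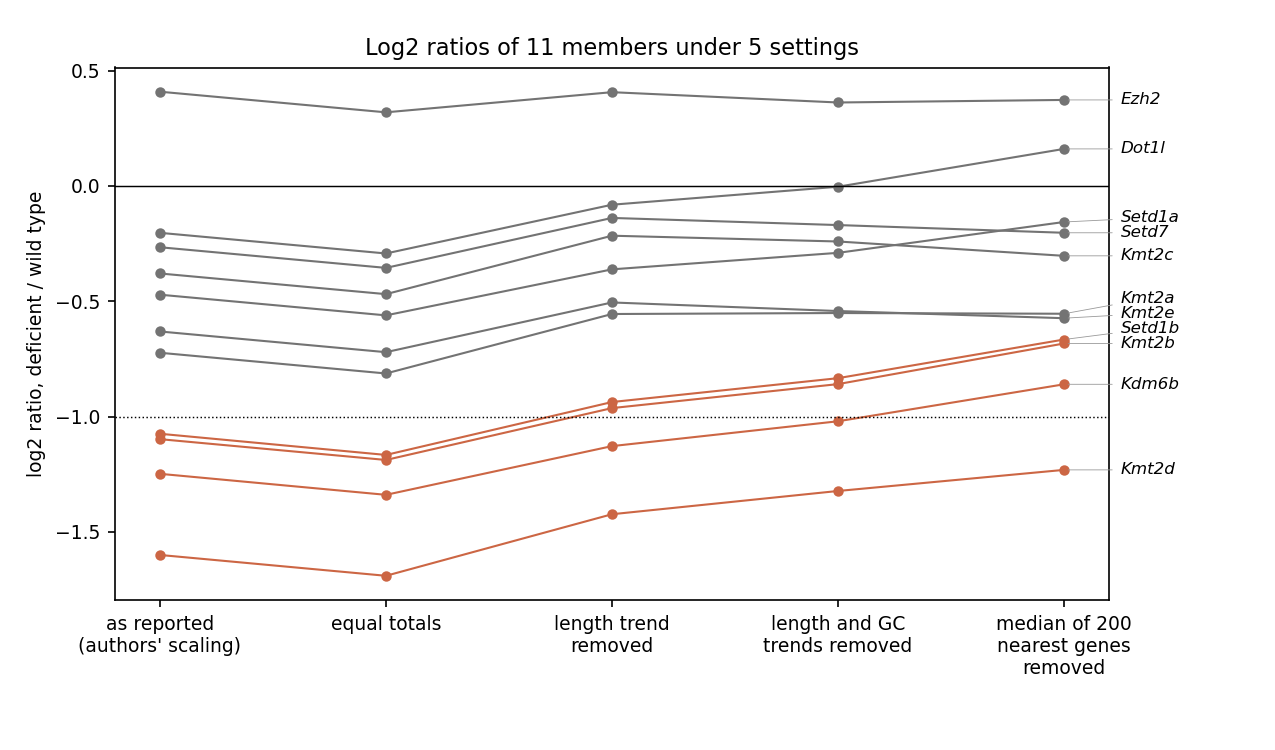
Log2 ratios of 11 members as reported, with the libraries scaled to equal totals, and after 3 ways of removing length and GC content. Kmt2d runs from -1.69 to -1.23 over these settings, and Dot1l crosses 0, from -0.20 as reported to 0.16 against its nearest genes. In that last setting 0.05, the median of all compared genes, stands for no difference from the nearest genes.

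In the core of Polycomb repressive complex 2, which methylates H3 lysine 27, Ezh2 and Eed were higher, Ezh1 even and Suz12 slightly lower. Ezh2, the catalytic subunit of dividing cells, had 3308 normalized counts in wild type and 4396 in DGKζ-/- cells. That was 1.33-fold higher (1.27 to 1.39), and its log2 ratio of 0.41 was the highest of any member. Eed, the subunit that binds the mark and stimulates the enzyme, was at 2776 and 3317, 1.20-fold higher (1.13 to 1.26). Ezh1, the less active paralog prominent in resting cells, was at 664 and 681 normalized counts, and its interval for the fold (0.912 to 1.15) included 1. Suz12, the scaffold subunit, was at 7153 and 6764, 1.06-fold lower (1.02 to 1.10). Per kilobase, Ezh2 stood at 1187 and 1577 normalized counts per kilobase and Ezh1 at 158 and 162. The complex's summed level was 4324 and 4891 normalized counts per kilobase, and none of these genes lies in the long, GC-rich class.

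Ezh2 and Setd8 had the highest log2 ratios of the members, in a library where genes of mitosis were higher too. Setd8, which monomethylates H4 lysine 20 and is tied to the cell cycle, was at 2493 and 3111 normalized counts, 1.25-fold higher (1.18 to 1.32). In a list of 17 G2/M genes, chosen with earlier results of these data known, every log2 ratio was positive. Of all compared genes 41.8% lay below 0. The median of the list was 0.73, Nusap1 (1.03) and Ube2c (0.99) were highest, and 1 passed 2-fold (against 1.3% of all compared genes). The 16 G1/S genes had a median of 0.08, with Rrm1 (0.39) and Rrm2 (0.35) furthest from 0. The part of cell cycle stage in the values of Ezh2 and Setd8 was not tested.

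The other lysine 20 writers and the lysine 9 writers were nearly equal between the libraries. Suv420h1 and Suv420h2, which add the later methyl groups to H4 lysine 20, were at 1063 and 1034 and at 276 and 266 normalized counts, and both intervals included 1. Of the 5 lysine 9 writers the log2 ratios ran from -0.06 to 0.17, with 4 intervals including 1. Ehmt1 and Ehmt2, the partners of the G9a/GLP dimethylase, were at 1626 and 1604 and at 2786 and 2804 normalized counts. Setdb1, the trimethylase that silences endogenous retroviruses, was at 2733 and 2675, and Suv39h2, a trimethylase of heterochromatin, at 531 and 509. Setdb2 was at 884 and 998 normalized counts, 1.13-fold higher (1.02 to 1.24).

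The writers of H3 lysine 36 and lysine 79 methylation differed little. Nsd1, a dimethylase, had the most counts of all members, 8252 and 8196, and an interval of 0.961 to 1.03 for the fold. Whsc1, its relative also called NSD2, was at 5860 and 6184, 1.06-fold higher (1.02 to 1.10). With the libraries scaled to equal totals the log2 ratio of Whsc1 was -0.012, beside 0.078 as reported. Setd2, the trimethylase that travels with RNA polymerase II, was at 4335 and 3931, 1.10-fold lower (1.05 to 1.16), and Ash1l at 2110 and 1835, 1.15-fold lower (1.07 to 1.23). Dot1l, the lysine 79 methyltransferase, was at 2353 and 2043, 1.15-fold lower (1.08 to 1.23). Its log2 ratio of -0.20 turned to 0.16 against genes of like length and GC content, where 0.05 stands for no difference.

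The SET-domain proteins with other or little histone activity were mixed. Of 6 log2 ratios 4 lay above 0 and 2 below (against 41.8% of all compared genes below). Kmt2e, a relative of the MLL genes that binds methylated lysine 4, was at 1901 and 1224 normalized counts, 1.55-fold lower (1.43 to 1.69). No other gene of the group differed by as much. Its close relative Setd5 was at 4540 and 4622, with an interval of 0.974 to 1.06. Setd3, which methylates actin, was at 1566 and 1816, 1.16-fold higher (1.08 to 1.25), and Setd6, which methylates the NF-κB subunit RelA, at 738 and 880, 1.19-fold higher (1.07 to 1.32). Smyd2, which methylates p53 among other proteins, was at 1915 and 2037, and Smyd5 at 4143 and 4023 normalized counts, both with intervals that included 1. Of the annotated exon bases of Smyd2, 30.0% overlap an antisense gene.

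Among the demethylases Kdm6b stood apart. Kdm6b, or JMJD3, removes methyl groups from H3 lysine 27 and so opposes EZH2. It was at 718 and 297 normalized counts (1232 and 173 reads), or 2.42-fold lower in DGKζ-/- cells (2.06 to 2.86). An antisense gene covers 4.11% of its exon bases. The other 11 demethylases had log2 ratios from -0.46 to 0.29, and the median over all 12 was 0.01. Summed per kilobase, the demethylases stood at 4363 normalized counts per kilobase in the wild-type and 4452 in the DGKζ-/- library.

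Demethylases of H3 lysine 4 were even or slightly higher. Kdm1a (LSD1), a flavin enzyme of corepressor complexes, was at 3122 and 3368 normalized counts, 1.08-fold higher (1.02 to 1.14), and its paralog Kdm1b was at 2790 and 2801. Kdm5a, a trimethyl demethylase, was at 3899 and 4215, 1.08-fold higher (1.03 to 1.13), and Kdm5b at 1242 and 1372, 1.10-fold higher (1.02 to 1.20). These small differences depend on the scaling. With equal totals the log2 ratios were 0.019 for Kdm1a, -0.084 for Kdm1b, 0.023 for Kdm5a and 0.053 for Kdm5b.

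The demethylases of lysine 9 and lysine 36 had members on both sides. Kdm4a, which acts on both residues, was at 1563 and 1910 normalized counts, 1.22-fold higher (1.14 to 1.31), whereas its paralog Kdm4b was at 571 and 412, 1.39-fold lower (1.20 to 1.61), and Kdm4c at 1034 and 1041. Kdm3a, a lysine 9 demethylase known to be induced in hypoxia, was at 1482 and 1785, 1.20-fold higher (1.12 to 1.30), and its paralog Kdm3b at 2065 and 1847, 1.12-fold lower (1.04 to 1.20). For Kdm3b 24.6% of the exon bases overlap an antisense gene. Kdm2a, a lysine 36 demethylase that binds CpG islands, was at 2635 and 2279, 1.16-fold lower (1.09 to 1.23), and its paralog Kdm2b at 2361 and 2380. The 11 compared hypoxia genes, chosen with earlier results of these data known, all lay above 0 (41.8% of all compared genes lay below). Their median log2 ratio was 0.46. Of them Vegfa (1.80), Ndrg1 (1.55) and Egln3 (1.39) were at least 2-fold higher (against 1.3%). The part of hypoxia in the level of Kdm3a was not tested.

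Transcript rows of 1 gene gave nearly the same values in most cases. Of 14 members with several rows, 11 had log2 ratios within 0.02 of each other. Suv420h1 had the widest span over its 7 rows, -0.04 to 0.20. Its 4 rows with 1061 to 1063 normalized counts in wild type lay at -0.04, and the 3 rows with 376, 391 and 455 lay at 0.20, 0.18 and 0.13. The rows of Whsc1 spanned 0.01 to 0.08 and those of Kdm2b -0.04 to 0.01.

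Subunits that share complexes with the lysine 4 writers lay on both sides of 0. Of 12 COMPASS subunits, which hold the enzymes on chromatin and stimulate them, 8 lay above 0 and 4 below (against 41.8% of all compared genes below). The counting interval was above 1 for 7 of the 12 (against 35.8% of all compared genes). Past 2-fold there were 0, against 1.29% of all compared genes lower and 1.3% higher. The median log2 ratio was 0.16, beside 0.05 for all compared genes. Men1 (0.27), encoding menin, the partner of KMT2A and KMT2B, and Pagr1a (0.26), the partner of KMT2C and KMT2D, lay furthest from 0. The interval was below 1 for 3 of the 12 (against 21.7%): Cxxc1 (-0.25), which binds unmethylated CpG in the SETD1 complexes, Paxip1 (-0.18) and Ncoa6 (-0.17). Transcripts of the 12 subunits are shorter, with a median of 3113 bases beside 8857 for the writers. Against the 200 nearest genes in length and GC content the medians were 0.10 for these subunits and -0.55 for the writers. On this scale 0.05 stands for no difference from the nearest genes.

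The lists around the other enzymes stayed mostly within 2-fold, as did the compared genes in general (1.29% were 2-fold lower and 1.3% higher). Among 6 accessory subunits of Polycomb repressive complex 2 the median was -0.16, with Phf1 at 88.6 and 37.7 normalized counts (152 and 22 reads), a ratio of 0.426 (0.259 to 0.668), and Jarid2 at -0.61. In Polycomb repressive complex 1, which binds the lysine 27 mark, 13 of 17 compared subunits lay below 0 (against 41.8% of all compared genes). Their median was -0.18, with Cbx6 at -0.54 and Pcgf5 at 0.50. Partners of DOT1L had 6 of 7 log2 ratios below 0 (against 41.8%) and a median of -0.25, with Aff3 (-0.58) and Aff1 (-0.36) lowest. The LSD1 partners had a median of -0.16, with Gse1 (-0.87) and Rcor1 (-0.39) lowest. Of 11 readers and partners around lysine 9 methylation, with a median of 0.02, Wiz (-0.60) and Cbx1 (0.44) lay furthest from 0.

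Further enzymes of lysine methylation that lie on autosomes had log2 ratios on both sides of 0. Of 17 listed, 13 were compared, 6 above and 7 below 0 (against 41.8% of all compared genes below), with a median of -0.06. Of these 13, 0 passed 2-fold, against 1.29% of all compared genes lower and 1.3% higher. Prdm2, a lysine 9 methyltransferase, had a log2 ratio of -0.57 and the demethylase gene Phf2 one of -0.50. Enzymes on the sex chromosomes were set aside from the members. Kdm5d and Uty, on the Y chromosome, had 1012 and 921 normalized counts in wild type and 0 reads in DGKζ-/-. Their X-linked counterparts Kdm5c, at 3969 and 5906 normalized counts (1.49-fold higher, 1.43 to 1.55), and Kdm6a, at 1467 and 2471 (1.68-fold higher, 1.58 to 1.80), are known to escape X inactivation. Others on the X chromosome differed less: the demethylase gene Phf8 was at 1368 and 1038, and Suv39h1, the paralog of Suv39h2, at 3141 and 3742.

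**Figure D5:**
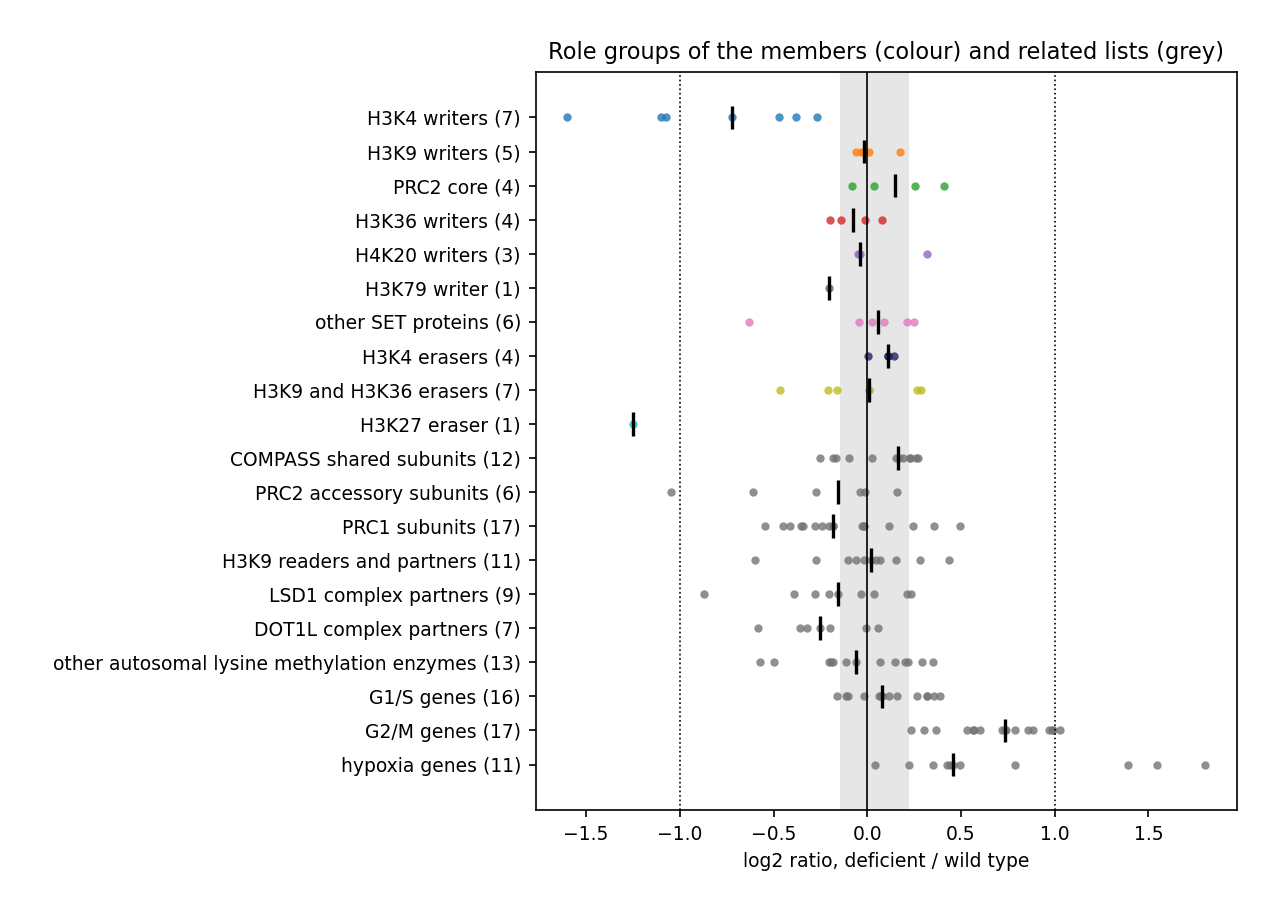
Log2 ratios of single genes (points) in the role groups of the members (colour) and in related lists (grey), with the median of each as a black bar and the number of genes in brackets. The grey band spans the quartiles of all compared genes. The lysine 4 writers have a median of -0.72, while the COMPASS subunits that work with them have one of 0.16.

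In the authors' deposited table no member passed an adjusted p-value of 0.05, with 0.999 as the smallest, and 0 of 30433 rows did. Unadjusted p-values in the authors' deposited table were under 0.05 for 2 members, Kmt2b (0.0168) and Kdm6b (0.0189), and for 1.07% of rows. The log2 fold changes in the authors' deposited table are smaller than the plain ratios of the normalized counts: -0.64 for Kmt2b and -0.63 for Kdm6b. For Kmt2d the authors' deposited table gives -0.18, whereas its normalized counts give a log2 ratio of -1.60 here. By the authors' values Kmt2d thus differs less than Kmt2c (-0.28) and Setd7 (-0.20). The reason for this gap was not tested.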

How the data were processed

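The authors deposited a table of normalized read counts, a signal that is never negative, per RefSeq transcript row and library. Per the submitters' processing notes, STAR version 2, DESeq and the build mm9 were named; what counted the reads is not given in the sources used here. Dividing each column by the worth of 1 read gave whole reads for 100% of its values (relative tolerance 0.0001). With 1 library per genotype edgeR's test has no residual degrees of freedom and was not run. The deposited comparison gives a log2 fold change, a p-value and a score by the authors, and the score was not used here.

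Of 33018 rows, 1 with shifted values was left out. Genes entered the comparison from a mean of 50 normalized counts upwards. Intervals of folds are exact Clopper-Pearson intervals at 95% on the reads of both libraries (SciPy 1.17.1); since these reads carry no molecular identifiers, they are not independent molecules. Length and GC trends were fitted by lowess over all compared genes (fraction 0.3, statsmodels 0.14.6). These corrections, and that by the nearest genes, kept the median of all compared genes in the corrected log2 ratios. GENCODE M21 and the RefSeq tables are of GRCm38, so they gave lengths, overlaps and promoters but no positions for the deposited rows. Every member is described; of each related list, the genes at least 2-fold different and those with the 2 largest absolute log2 ratios are named. Members and lists were chosen with earlier results of these data known. The procedures were tested on simulated data. Alternatives were the pseudocount (1, 50), the minimum (none, 200), equal totals, recentring, other rows, and length and GC corrections, of which those with GC were added after the data were seen.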

Additional observations from a re-analysis of the deposited data

How the results depend on the processing

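All 42 log2 ratios and the medians were recomputed under 11 alternatives. Kmt2d, Kdm6b, Kmt2b and Setd1b stayed below 0 under each of them. The number of members at least 2-fold lower was 4 as reported, 3 with 50 added to the counts (without Setd1b), 2 with the length trend removed, 2 with the length and GC trends removed and 1 with the median of the 200 nearest genes removed, beside 1.29%, 0.637%, 1.08%, 1.01% and 0.933% of all genes in that order; these 3 leave out Setdb2, which has no length. The median log2 ratio of the lysine 4 writers was -0.56, -0.55 and -0.55 under these 3 settings in that order, that of the lysine 36 writers 0.070, 0.040 and -0.017, that of the DOT1L partners -0.14, -0.13 and -0.054, and that of the lysine 4 demethylases 0.19 and 0.18 under the first and second.

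Scaling to equal totals changed the split of all genes past 2-fold from 137 higher and 136 lower to 117 higher and 180 lower. It gave medians of -0.078 for the demethylases, -0.16 for the lysine 36 writers, -0.032 for the other SET-domain proteins, 0.021 for the lysine 4 demethylases, 0.073 for the COMPASS subunits, -0.010 for the G1/S genes, 0.65 for the G2/M genes and 0.38 for the hypoxia genes. Recentring gave 0.025 for the G1/S genes, and a minimum mean of 200 gave -0.040 for the accessory subunits of Polycomb repressive complex 2, without Phf1. The cause was not tested beyond the construction of each setting. No paired analysis was possible because each genotype has 1 library. Members had at least 473 reads in the wild-type and 78 in the DGKζ-/- library, which sets the width of the intervals.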

Other observations

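Among the 123 other genes with transcripts of at least 6000 bases and 55% GC, 5 that act on chromatin or transcription, chosen after their values were seen, ranged from lower to higher in the DGKζ-/- library. Spen, a transcriptional repressor that also binds Xist RNA, was at 1829 normalized counts in wild type and 768 in DGKζ-/-, 2.38-fold lower (2.15 to 2.63). Arid1a, a subunit of the BAF remodelling complex, was at 3384 and 1636, 2.07-fold lower (1.93 to 2.22). In the same class Smarca4, the ATPase of that complex, and Chd3, a remodeller of the NuRD complex, had log2 ratios of -0.32 and -0.21. Jade2, a subunit of a histone acetyltransferase complex, was at 3913 and 5217 normalized counts, 1.33-fold higher (1.28 to 1.39).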
